A study of Mus musculus with 6 samples.

Results

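The genes described here are 36 genes of the p53 response and of the BCL2 family of apoptosis regulators, with caspase genes. They were taken by gene symbol from a list chosen with earlier results of these data known. All 36 had a row among the 54087 gene rows of the 6 count files, and 34 had enough counts to be tested. The genotype at Dnmt3A, which encodes a de novo DNA methyltransferase, was the variable of the study: RNA was sequenced from 3 libraries of Dnmt3A WT/WT and 3 of Dnmt3A KO/KO male C57BL/6 mice aged 10 days post partum. Every library came from germ cells carrying an Id4-GFP reporter and sorted for bright and medium fluorescence, a gate that the labels treat as an approximation of spermatogonial stem cells. No source used here says whether the KO/KO allele is germline or conditional, or whether the numbered samples are separate animals. The p-values therefore measure only the spread between these samples, which may be technical.

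The tumour suppressor p53 is a transcription factor that is stabilised by DNA damage and other stress, and MDM2 and MDM4 restrain it. Among its target genes are cell cycle brakes, stress regulators and members of the BCL2 family. In that family BAX, BAK1 and BOK open the outer mitochondrial membrane. BCL2 and its pro-survival relatives hold BAX and BAK1 back, and BH3-only proteins either activate BAX and BAK1 or neutralise the pro-survival proteins. Cytochrome c released from mitochondria assembles APAF1 and caspase-9 into the apoptosome, while death receptors at the cell surface act through caspase-8. In the young testis a wave of germ cell apoptosis that depends on Bax sets germ cell numbers, and in oocytes the p53 relative p63 is known for removing cells with DNA damage.

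For most of these genes no difference between the genotypes was called, which with 3 libraries per genotype does not show that they were alike. Of 34 members tested, 4 were higher in KO/KO (Trp63, Mdm4, Bik and Sesn2) and 1 was lower (Hrk), by the edgeR quasi-likelihood test with Benjamini-Hochberg adjustment over all 21314 genes tested and a threshold of 0.05. The share of all tested genes called was 14.8%, with 8.33% higher and 6.42% lower. The members' 5 of 34 is close to that background, so the number of calls does not set them apart. The median log2 fold change (KO/KO over WT/WT) was 0.07 over the members and 0 over all genes tested. Among genes with a mean of at least 1 CPM (counts scaled to a common library size of 1000000), the median absolute log2 fold change was 0.23 over 31 members and 0.24 over 15876 genes. Only Trp63 and Hrk, both at low counts, changed by at least 1 on the log2 scale. Without WT/WT replicate 2 the only member called was Mdm4, while the share of all genes tested that were called fell to 6.21%. Without WT/WT replicate 1 or 3 it was 3 members, with 7.77% and 6.95% of all genes called. With DESeq2 it was 9 members, with 18.5% of all genes called.

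**Figure D1:**
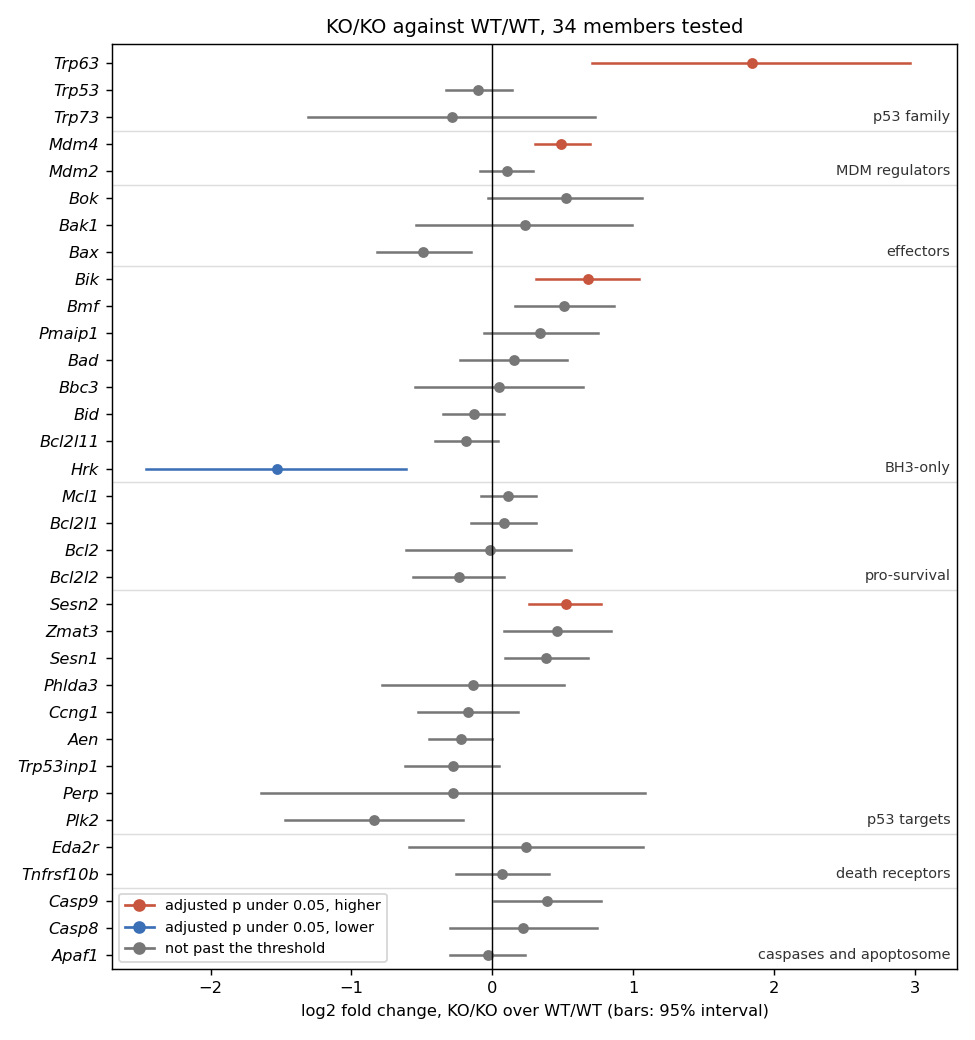
Log2 fold change of KO/KO over WT/WT (x axis) for the 34 members tested, grouped by role, with 95% intervals from 3 libraries per genotype. Trp63, Mdm4, Bik and Sesn2 lie to the right with an adjusted p under 0.05, Hrk lies to the left, and the intervals of Mdm2, Mcl1 and Bcl2l1 are narrow and include 0.

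Counts assigned to genes ranged from 42681201 to 61749155 a library. Dnmt3a itself was at 188 to 215 CPM for WT/WT and 90.2 to 104 CPM for KO/KO (log2 fold change -1.02 with an SE of 0.09, edgeR adjusted p = 0.000222), a 2.03-fold difference, so Dnmt3a transcript was still counted in the libraries labelled KO/KO. Every pair of libraries differed by more than sampling noise, with a chi-square per degree of freedom of 12.4 to 14.8 between WT/WT libraries and 36.3 to 49.2 between KO/KO libraries, and KO/KO replicate 1 gave 34.5 to 35.4 against the WT/WT libraries and 36.3 to 37.1 against its own group. Of 8 germ cell markers, all present, 2 were called higher and 3 lower, with a summed level of 1970 to 2030 CPM for WT/WT and 1790 to 1980 CPM for KO/KO. Its members moved in opposite directions. Id4, the gene on which the sorting reporter is based, was 3.72-fold higher (36.9 to 38.4 CPM for WT/WT, 86.7 to 176 CPM for KO/KO) and Gfra1 was 2.01-fold higher, while Uchl1 was 1.84-fold, Zbtb16 1.48-fold and Sall4 1.29-fold lower. Markers of other testis cells were also counted. The summed level of 10 Sertoli markers (1 called higher) was 474 to 717 CPM for WT/WT and 503 to 741 CPM for KO/KO, that of 6 stromal markers (2 called lower) 78 to 108 and 38.2 to 55.4 CPM, that of 6 endothelial markers (4 called higher) 33.7 to 40.1 and 119 to 159 CPM, that of 5 myoid markers 5.83 to 19.3 and 8.31 to 11.9 CPM, that of 6 Leydig markers 6.58 to 16 and 3.57 to 7.24 CPM, and that of 3 erythroid markers (1 called higher) 0.436 to 1.42 and 0.491 to 5.57 CPM. The Sertoli marker called was Rhox5 (mean 0.812 CPM for WT/WT and 23.5 CPM for KO/KO), and the other 9 overlapped between the genotypes. Of the stromal markers Col1a1 (mean 66.3 and 24.3 CPM) and Pdgfra (19.6 and 12.9 CPM) were called lower. Col1a2, Dcn and Nr2f2 overlapped and did not pass the test, and Lum was not tested. Of the endothelial markers Cdh5, Vwf, Kdr and Flt1 were called higher, whereas Pecam1 (log2 fold change 0.16) and Tek (-0.18) did not pass the test. The 6 macrophage markers (1 called higher) summed to 1.32 to 2.26 and 3.83 to 4.82 CPM, while Adgre1, Csf1r, Lyz2 and C1qa were at or near 0. The macrophage marker called was Cd68 (mean 1.48 CPM for WT/WT and 4.07 CPM for KO/KO). Ptprc, the other macrophage marker tested, was low, overlapped and did not pass the test (log2 fold change -1.01). Of the erythroid markers Hbb-bs was called higher although its libraries overlapped, and Hba-a1 and Alas2 did not pass the test. The part of these markers' cells in the results below was not tested, and in sorted cells measured in bulk a different number of cells of a type and a different amount of RNA per cell cannot be told apart.

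Promoter sequences are shown for called members, since CpG sites are what a DNA methyltransferase acts on, although methylation was not measured in these libraries. RefSeq promoters on GRCm38.p6, the assembly of mm10, were found for 29 of the 36 members and for 3 of the 5 called ones; Trp63 and Bik are without an entry. Each line gives 200 bases, from 250 to 51 bases before an annotated start, written 5′ to 3′ on the strand of the gene, with CG in capitals.

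Hrk (chr5:118169514-118169713, plus strand): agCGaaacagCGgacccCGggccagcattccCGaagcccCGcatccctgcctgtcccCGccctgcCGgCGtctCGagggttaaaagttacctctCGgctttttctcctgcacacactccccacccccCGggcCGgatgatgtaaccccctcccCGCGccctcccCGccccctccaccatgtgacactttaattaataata
Mdm4 (chr1:133025467-133025666, minus strand): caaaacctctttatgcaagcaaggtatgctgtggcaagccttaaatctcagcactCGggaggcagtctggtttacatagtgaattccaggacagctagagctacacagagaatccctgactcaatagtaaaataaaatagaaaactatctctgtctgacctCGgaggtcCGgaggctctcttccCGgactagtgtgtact
Mdm4 (chr1:133030638-133030837, minus strand): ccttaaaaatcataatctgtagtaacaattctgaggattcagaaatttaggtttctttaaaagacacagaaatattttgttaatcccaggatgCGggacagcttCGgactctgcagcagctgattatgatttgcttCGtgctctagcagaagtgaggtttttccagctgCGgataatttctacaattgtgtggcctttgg
Sesn2 (chr4:132510507-132510706, minus strand): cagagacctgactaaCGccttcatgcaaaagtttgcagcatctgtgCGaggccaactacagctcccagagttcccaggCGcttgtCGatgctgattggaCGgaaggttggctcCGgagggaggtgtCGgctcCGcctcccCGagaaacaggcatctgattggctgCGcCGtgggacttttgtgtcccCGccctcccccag

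The Hrk stretch holds 15 CG, that of Sesn2 12, and both Mdm4 stretches hold 4. Over the full 250 bases before the start Hrk had 21 CG, Sesn2 18 and the Mdm4 promoters 5 and 4. The median over the same 250 bases was 16 CG in the 42 member promoters (range 0 to 42) and 6 in all 32851 promoters of the table. Counting one strand is enough for CG, which reads the same on both.

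The p53 half-site consensus, a pattern of 10 bases that also reads the same on both strands, was then searched in the same 250 bases. A match was found in 7 of the 42 member promoters (16.7%), belonging to 7 genes, and in 7.13% of all promoters. The member list was drawn up partly from p53 targets, so this share is a description. All 7 matches are shown. None of the 7 genes was called by edgeR, against 14.8% of all genes tested, while DESeq2 called Bax, Bmf and Sesn1, against 18.5%. None of the printed promoters of Hrk, Mdm4 and Sesn2 held a match in this window, and Trp63 and Bik had no sequence to search. So few genes and promoters cannot show whether matches and calls go together. Each line gives the half-site in capitals with up to 10 bases on either side.

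Aen (chr7:78895927-78895956, plus strand): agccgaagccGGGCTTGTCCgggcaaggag
Bax (chr7:45467080-45467109, minus strand): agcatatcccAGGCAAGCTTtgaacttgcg
Bmf (chr2:118544781-118544810, minus strand): cccaagtgaaGGGCTTGCCTcttgccgaat
Ccng1 (chr11:40755452-40755481, minus strand): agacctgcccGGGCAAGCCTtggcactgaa
Mdm2 (chr10:117710925-117710954, minus strand): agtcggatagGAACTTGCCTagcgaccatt
Sesn1 (chr10:41887256-41887285, plus strand): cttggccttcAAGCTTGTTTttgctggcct
Trp53 (chr11:69580274-69580303, plus strand): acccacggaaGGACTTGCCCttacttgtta

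The Bax half-site begins 201 bases before the start, that of Ccng1 185 bases before it and that of Mdm2 186 bases before it. A match in these letters is not evidence of binding.

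**Figure D2:**
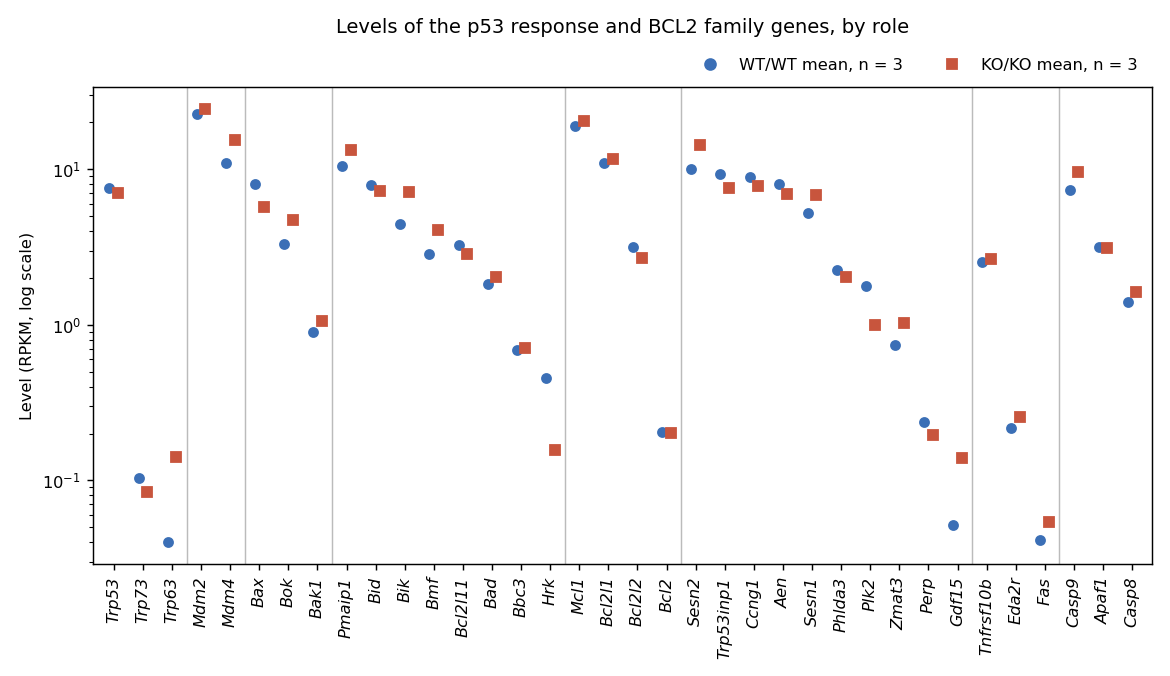
Mean level in RPKM (CPM per kilobase of exon, log axis) of each of the 36 members in WT/WT (circles) and KO/KO (squares), grouped by role and ordered by level within a role. Mdm2, Mcl1 and Mdm4 lie at the top, and Trp73, Trp63, Gdf15 and Fas at the bottom of the plot.

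Compared per length of exon, the members spanned a wide range of levels. Mdm2 had the highest level of the 36, at 22.7 RPKM for WT/WT and 24.4 RPKM for KO/KO, followed by the pro-survival gene Mcl1 at 18.9 and 20.5 RPKM. Among BH3-only genes Pmaip1 (Noxa, which binds mainly MCL1) led with 10.5 and 13.3 RPKM. Bcl2, the founding member of its family, was at 0.206 and 0.203 RPKM, far below its relatives Bcl2l1 (11 and 11.6 RPKM) and Bcl2l2 (3.17 and 2.68 RPKM). Among pore-forming effectors Bax, at 8.06 and 5.76 RPKM, was above Bok at 3.31 and 4.73 RPKM and Bak1 at 0.903 and 1.05 RPKM. The death receptor Fas was nearly absent, with 2 to 5 counts per WT/WT library and 4 to 9 per KO/KO library, and was not tested.

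Of the p53 family, Trp53 itself did not pass the test and Trp63 was higher in KO/KO. Trp53 stood at 29.9, 28.5 and 33 CPM for the WT/WT libraries and at 30.2, 26.8 and 28.4 CPM for the KO/KO libraries. These ranges overlap, and the 95% interval of the log2 fold change ran from -0.33 to 0.14 (estimate -0.10, edgeR adjusted p = 0.594). The p53 protein is controlled mainly by its stability, which RNA counts do not measure.

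Trp63, on chromosome 16 (25683763 to 25892102, GRCm38), encodes p63, the regulator of stratified epithelia and of oocyte quality. It had 11, 8 and 24 counts for the WT/WT libraries and 73, 44 and 68 counts for the KO/KO libraries. In CPM this was 0.251, 0.166 and 0.588 against 1.63, 0.892 and 1.05, so every KO/KO library was above every WT/WT library. The log2 fold change was 1.84 (SE 0.50, edgeR adjusted p = 0.0373). It passed the low-count filter in all 3 KO/KO libraries but in only 2 of 3 in WT/WT, so its entry into the test rested on the group where it is high. The adjusted p was 0.126 without WT/WT replicate 1, 0.138 without WT/WT replicate 2, 0.0950 without KO/KO replicate 1 and 0.0519 without KO/KO replicate 3. The counts cover the whole gene and do not tell the isoforms with a transactivation domain from those without it. Trp73, the third gene of the family, had 12 to 34 counts for WT/WT and 18 to 33 in KO/KO (log2 fold change -0.29, edgeR adjusted p = 0.724).

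The gene for MDM4, which binds p53 and blocks its activity, rose, and that for the ubiquitin ligase MDM2 did not pass the test. Mdm4, on chromosome 1 (132959484 to 133030561), stood at 172, 163 and 154 CPM for WT/WT and at 218, 254 and 215 CPM for KO/KO. All KO/KO libraries were above all WT/WT libraries, with a log2 fold change of 0.49 (SE 0.09, edgeR adjusted p = 0.00588), or 1.41-fold. It was the only member called in every alternative fit in which a library was left out, with a log2 fold change between 0.42 and 0.55. It was also called at a threshold of 0.01, where it was the only one. Mdm2 stood at 113, 112 and 121 CPM for WT/WT and 114, 133 and 124 CPM for KO/KO. Its log2 fold change was 0.10, with a 95% interval from -0.09 to 0.29 (edgeR adjusted p = 0.471). Mdm2 is both an inhibitor of p53 and one of its best-known targets.

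**Figure D3:**
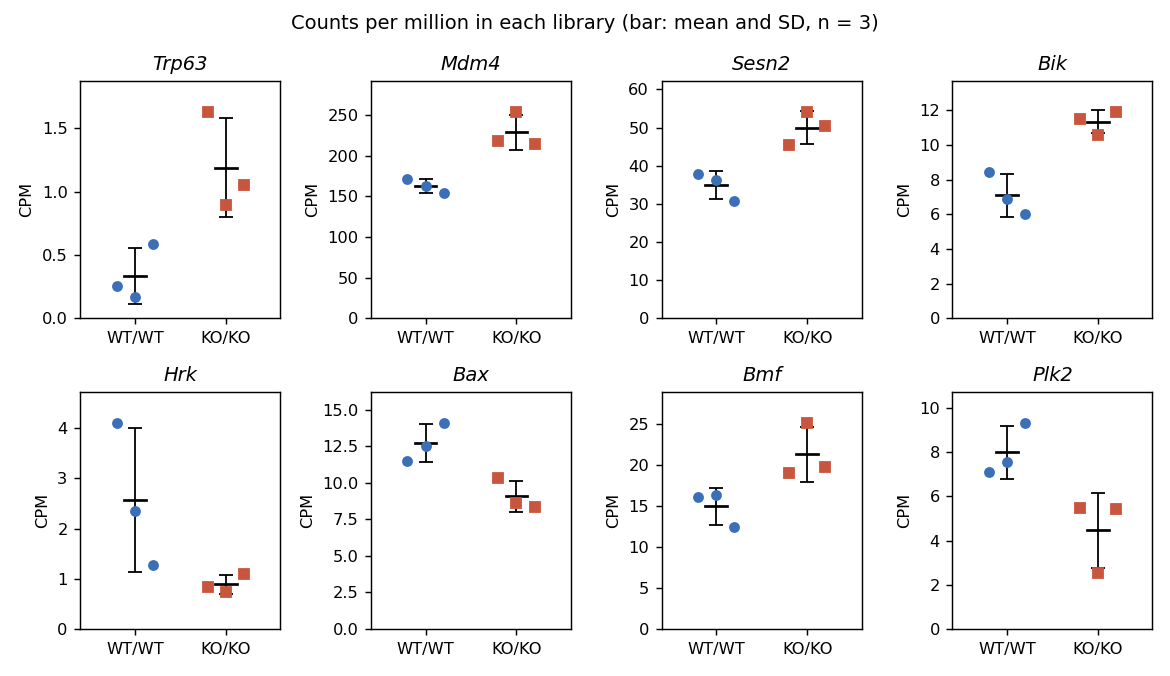
CPM in each library (points) for the 5 called members and for Bax, Bmf and Plk2, with the mean and SD of 3 libraries per genotype. The genotypes do not overlap in any of the 8 panels; the WT/WT libraries of Hrk spread from 1.27 to 4.11 CPM.

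Of the 3 pore-forming effectors none passed the test by edgeR (1 had an unadjusted p under 0.05, 1 was called with DESeq2 and 0 with limma-voom). Bax stood at 11.5, 12.5 and 14.1 CPM for WT/WT and at 10.3, 8.59 and 8.34 CPM for KO/KO. The KO/KO libraries were all below the WT/WT libraries, and the log2 fold change of -0.49 (SE 0.15) fell just short of the threshold (edgeR adjusted p = 0.0582). With DESeq2 it was called (adjusted p = 0.0229), and so it was without KO/KO replicate 1 (edgeR adjusted p = 0.0448). Leaving out any other library gave no call (edgeR adjusted p from 0.0947 to 0.207), nor did the replicate block (0.109). Of its exon bases 12.2% are shared with Gm45808 on the same strand.

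Bok, a BAX relative, stood at 5.2, 6.29 and 6.77 CPM for WT/WT and at 8.24, 6 and 11.9 CPM for KO/KO. KO/KO replicate 3 was the highest, replicate 2 lay within the WT/WT range, and the log2 fold change was 0.52 (edgeR adjusted p = 0.190). It was 0.73 without KO/KO replicate 2 (adjusted p = 0.0421) and 0.24 without KO/KO replicate 3 (adjusted p = 0.489). Bak1 showed the same library at the top, with 2.52, 1.4 and 3.69 CPM for KO/KO against 1.79 to 2.56 CPM for WT/WT. Its log2 fold change was 0.23, and -0.14 without KO/KO replicate 3.

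Among the 8 BH3-only genes, Bik rose, Hrk fell and 6 did not pass the test. Bik, whose protein sits at the endoplasmic reticulum and binds pro-survival proteins, lies on chromosome 15 (83526862 to 83544634). It stood at 8.45, 6.85 and 6.01 CPM for WT/WT and at 11.5, 10.6 and 11.9 CPM for KO/KO, without overlap. The log2 fold change was 0.68 (SE 0.16, edgeR adjusted p = 0.0236). The KO/KO libraries differed by 1.12-fold among themselves and the WT/WT libraries by 1.41-fold. Leaving out WT/WT replicate 2 or 3 ended the call (adjusted p = 0.110 and 0.0988).

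Hrk (harakiri), on chromosome 5 (118164648 to 118189478), is a BH3-only gene known from neurons deprived of growth factors. It had 180, 113 and 52 counts for WT/WT and 37, 36 and 71 counts for KO/KO. In CPM this was 4.11, 2.35 and 1.27 against 0.827, 0.73 and 1.1. The groups do not overlap, but WT/WT replicate 3 lay close to KO/KO replicate 3, and the WT/WT libraries differed by 3.22-fold. Its log2 fold change was -1.53 (SE 0.41, edgeR adjusted p = 0.0354), and -1.03 without WT/WT replicate 1 (adjusted p = 0.150). The call was also lost without WT/WT replicate 2 (adjusted p = 0.0905), without KO/KO replicate 1 (0.0739) or 2 (0.0709), and with limma-voom (0.0728).

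Bmf, a BH3-only gene linked to the cytoskeleton, stood at 16.1, 16.4 and 12.4 CPM for WT/WT and at 19, 25.2 and 19.8 CPM for KO/KO. All KO/KO libraries were higher, and the log2 fold change of 0.51 (SE 0.16) had an edgeR adjusted p of 0.0568 (0.0194 with DESeq2). Pmaip1 stood at 22.1, 26.6 and 37.3 CPM for WT/WT and 34.7, 32.9 and 41.5 CPM for KO/KO, with overlap (log2 fold change 0.34, edgeR adjusted p = 0.241).

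Bbc3 (Puma), a strong p53 target, was low, at 1.37 to 1.62 CPM for WT/WT and 1.23 to 1.68 CPM for KO/KO. Bcl2l11 (Bim) stood at 27.5, 25.5 and 25.3 CPM and at 23, 23 and 22.6 CPM. Bid, which caspase-8 cleaves, stood at 27.9, 28.6 and 28.3 CPM and at 26.6, 25.9 and 24.9 CPM. For both of these the KO/KO libraries were all below the WT/WT libraries, with log2 fold changes of -0.19 and -0.13 and edgeR adjusted p of 0.247 and 0.400. Bad stood at 4.46 to 4.84 and 4.82 to 5.7 CPM (edgeR adjusted p = 0.615). For Bid 17.7% of the exon bases lie under Bcl2l13, for Bad 20.5% under Gpr137 and for Bak1 18.2% under Ggnbp1, each on the opposite strand, and although the labels name a stranded kit, no source used here says whether strand was used in counting.

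None of the 4 pro-survival genes passed the test (edgeR; 0 had an unadjusted p under 0.05, and 0 were called with DESeq2 or limma-voom). Mcl1, a short-lived protein, stood at 59.6, 65.5 and 69.1 CPM for WT/WT and 68.7, 71.7 and 69.7 CPM for KO/KO, with a 95% interval of the log2 fold change from -0.08 to 0.31. Bcl2l1 (Bcl-xL) stood at 52.5, 52.3 and 46.5 CPM and at 51, 59.2 and 49.6 CPM, with an interval from -0.15 to 0.31.

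Bcl2l2 (Bcl-w), which is needed for spermatogenesis, stood at 16.3, 13.6 and 12.5 CPM for WT/WT and 12.4, 12.5 and 11.1 CPM for KO/KO. Its log2 fold change was -0.24 (edgeR adjusted p = 0.294), and 13.3% of its exon bases are shared with Gm20521 on the same strand. Bcl2 had only 68 to 96 counts per WT/WT library and 73 to 121 per KO/KO library. Its 95% interval ran from -0.61 to 0.56, wider than those of Mcl1 and Bcl2l1.

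Among the 10 other p53 targets, 9 were tested, Sesn2 rose and 8 did not pass the test. Sesn2, a stress-induced inhibitor of mTORC1 on chromosome 4 (132492032 to 132510501), stood at 37.8, 36.2 and 30.7 CPM for WT/WT and at 45.5, 54.1 and 50.3 CPM for KO/KO, without overlap. The log2 fold change was 0.52 (SE 0.11, edgeR adjusted p = 0.0147), or 1.43-fold. Leaving out WT/WT replicate 2 or 3 ended the call (adjusted p = 0.0619 and 0.0688).

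Its paralogue Sesn1 stood at 23.3, 20.8 and 18.5 CPM for WT/WT and 24.6, 30.8 and 26.1 CPM for KO/KO, and Zmat3, an RNA-binding protein gene, at 8.38, 9.37 and 7.79 and at 10.4, 14.3 and 10.4 CPM. For both the lowest KO/KO library lay above the highest WT/WT library, but neither passed the test (log2 fold changes 0.38 and 0.46, edgeR adjusted p = 0.0825 and 0.106).

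Other targets lay on the opposite side of 0. Plk2, a polo-like kinase gene, stood at 7.1, 7.54 and 9.34 CPM for WT/WT and at 5.47, 2.51 and 5.43 CPM for KO/KO, with KO/KO replicate 2 the lowest (log2 fold change -0.84, SE 0.28, edgeR adjusted p = 0.0776). It was called with DESeq2 (adjusted p = 0.0203). Aen, an apoptosis-enhancing nuclease gene, stood at 43.1, 47.8 and 49.1 CPM and at 42, 36.5 and 41.4 CPM without overlap (log2 fold change -0.22, edgeR adjusted p = 0.173).

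Trp53inp1, a cofactor and target of p53, stood at 61.6, 62 and 56.6 CPM for WT/WT and at 45.4, 62.5 and 40.1 CPM for KO/KO. Only KO/KO replicate 2 reached the WT/WT level. The log2 fold change was -0.28 (edgeR adjusted p = 0.242). It was -0.49 without KO/KO replicate 2 (adjusted p = 0.0116) and -0.14 without KO/KO replicate 3 (adjusted p = 0.554). Ccng1, a widely used p53 target, overlapped at 26.1 to 36.9 and 22.5 to 30.6 CPM, and so did Phlda3, an inhibitor of AKT, at 3.24 to 3.87 and 1.97 to 4.47 CPM. Perp had 6 to 28 counts for WT/WT and 11 to 26 for KO/KO, and like Trp63 it reached the filter level in only 2 of 3 WT/WT libraries. Gdf15, a secreted stress factor, had 3, 1 and 8 counts for WT/WT and 9, 16 and 16 in KO/KO, too few for the test.

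Thus within the p53 targets tested, the genotypes did not overlap for 5, of which 3 lay higher for KO/KO and 2 lower. Over all members tested these numbers were 7 and 7, against 18.2% and 17.5% of all genes tested. At an unadjusted p under 0.05 there were 11 members, against 29.5% of all genes tested.

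**Figure D4:**
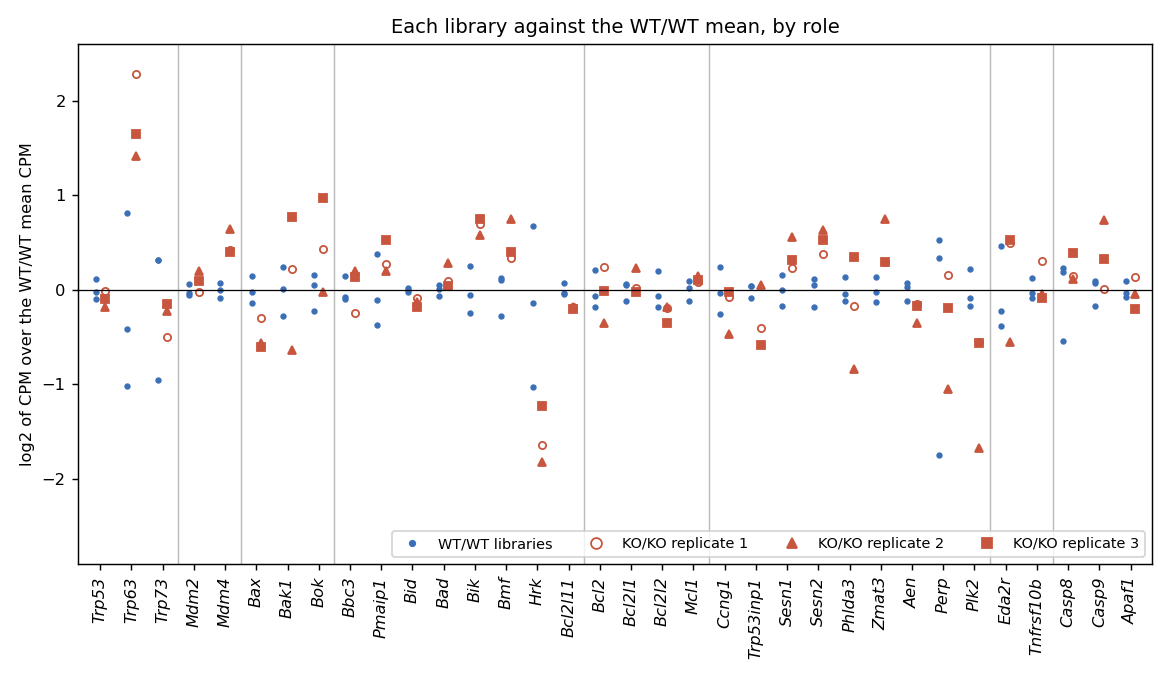
Log2 of each library's CPM over the WT/WT mean (y axis) for the 34 members tested, grouped by role. KO/KO replicate 2 (triangles) is often at one end of its group, as for Plk2, Phlda3, Casp9 and Zmat3, and KO/KO replicate 3 (squares) stands highest for Bok and Bak1.

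None of the 5 tested death receptor, caspase and apoptosome genes passed the test (edgeR; 1 had an unadjusted p under 0.05, and 0 were called with DESeq2 or limma-voom). Tnfrsf10b, the mouse receptor for the ligand TRAIL, stood at 13, 13.5 and 15.1 CPM for WT/WT and 17.1, 13.4 and 13 CPM for KO/KO, and the X-linked Eda2r at 0.982 to 1.76 and 0.872 to 1.85 CPM. Casp8 stood at 2.79 to 4.75 and 4.38 to 5.29 CPM. Apaf1 stood at 27.2, 28 and 30.5 CPM and at 31.4, 27.7 and 24.8 CPM (95% interval of the log2 fold change -0.30 to 0.23).

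Casp9, the initiator caspase of the mitochondrial route, stood at 40.4, 39.9 and 33.7 CPM for WT/WT and at 38.2, 63.3 and 47.8 CPM for KO/KO. KO/KO replicate 1 lay within the WT/WT range and the other KO/KO libraries above it. Its log2 fold change was 0.39 (SE 0.17, edgeR adjusted p = 0.156). It was 0.56 without KO/KO replicate 1 (adjusted p = 0.0362) and 0.18 without KO/KO replicate 2 (adjusted p = 0.384).

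The KO/KO libraries did not move together across the members. KO/KO replicate 2 was the highest of its group for 14 members and the lowest for 15 of the 34 tested. Replicates 1 and 3 took the middle place for 15 and 14 members. These places were not counted over all genes tested, so they cannot be called particular to the members. The spread within KO/KO was widest for Bak1 (2.64-fold between the highest and lowest library), Perp (2.30-fold) and Phlda3 (2.27-fold). In WT/WT it was widest for Perp (4.83-fold), Trp63 (3.54-fold) and Hrk (3.22-fold), all at low counts, and narrowest for Bid (1.03-fold). These widest and narrowest values are among the members tested.

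Other genes of the pathway, 81 in all, were taken from 4 lists. Of 74 tested, 4 rose (Sfn, Rchy1, Xpc and Birc2) and 4 fell (Dram1, Bnip3, Ddit4 and Ei24), with a median log2 fold change of -0.03. These 8 of 74 stand against 14.8% of all genes tested. Among the 25 other p53 targets, 3 rose and 3 fell, so 6 of 25 were called, against the same 14.8%. At an unadjusted p under 0.05 there were 11 of these 25, against 29.5% of all genes tested. Whether this list differs from the background was not tested.

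Sfn (14-3-3 sigma, a cell cycle brake) stood at 1.71, 2.35 and 1.81 CPM for WT/WT and 4.24, 2.98 and 4.9 CPM for KO/KO (log2 fold change 1.04 with an SE of 0.25, edgeR adjusted p = 0.0233). Xpc, a DNA damage sensor of nucleotide excision repair, stood at 104, 92.5 and 82.8 and at 114, 155 and 126 CPM (log2 fold change 0.50, edgeR adjusted p = 0.0280). Rchy1, a ubiquitin ligase gene acting on p53, stood at 23.8 to 26.6 and 34.1 to 38.4 CPM (log2 fold change 0.51, edgeR adjusted p = 0.0102). For Rchy1 18% of the exon bases lie under Thap6 on the opposite strand.

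Dram1, a regulator of autophagy, fell from 1.85, 1.29 and 0.907 CPM to 0.335, 0.426 and 0.31 CPM (log2 fold change -1.91, SE 0.39, edgeR adjusted p = 0.0109). Ddit4, an inhibitor of mTORC1 as Sesn2 is, fell from 12.9, 12 and 10.5 CPM to 7.06, 6.49 and 8.79 CPM (log2 fold change -0.67, edgeR adjusted p = 0.0257). Ei24 fell from 37.3 to 39.9 CPM for WT/WT to 27.2 to 30.3 CPM for KO/KO (log2 fold change -0.46, edgeR adjusted p = 0.0131). The genotypes did not overlap for any of these 3 genes, and Sesn2 and Ddit4 moved in opposite directions.

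Cdkn1a (p21), the classical cell cycle target of p53, was low and did not pass the test, at 1.14, 1.77 and 2.48 CPM for WT/WT and 2.7, 1.97 and 3.95 CPM for KO/KO (log2 fold change 0.69, 95% interval -0.09 to 1.46, edgeR adjusted p = 0.222). Ppm1d, a phosphatase gene that p53 induces and that shuts its activity off, stood at 58.5 to 61.2 and 47.4 to 55.8 CPM (log2 fold change -0.24, edgeR adjusted p = 0.115).

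None of 20 genes for kinases, cofactors and other regulators of p53 passed the test (edgeR; 4 had an unadjusted p under 0.05, with 2 called by DESeq2 and 0 by limma-voom). Among 21 tested genes of the apoptosis machinery 1 passed, Birc2, which encodes the inhibitor of apoptosis cIAP1. It stood at 61, 54.1 and 52.1 CPM for WT/WT and 66, 81.5 and 70.6 CPM for KO/KO (log2 fold change 0.38, edgeR adjusted p = 0.0380).

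Among 8 tested BCL2 relatives and BNIP genes 1 passed, the mitophagy gene Bnip3. It stood at 25, 30.2 and 26.6 CPM for WT/WT and 19.7, 17.6 and 11.8 CPM for KO/KO (log2 fold change -0.74 with an SE of 0.18, edgeR adjusted p = 0.0236), and 22.3% of its exon bases lie under Gm45507 on the opposite strand. Without WT/WT replicate 2 or replicate 3 none of the 4 rises among the other pathway genes was called, and without WT/WT replicate 1 or 2 a single fall was (Ei24 and Dram1 in turn). Without WT/WT replicate 1 the calls of Sfn and Birc2 were lost too, and without WT/WT replicate 3 that of Bnip3 and Ei24. Ddit4 was also not called without KO/KO replicate 1 or 2, Birc2 without KO/KO replicate 2 and Sfn without KO/KO replicate 3.

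**Figure D5:**
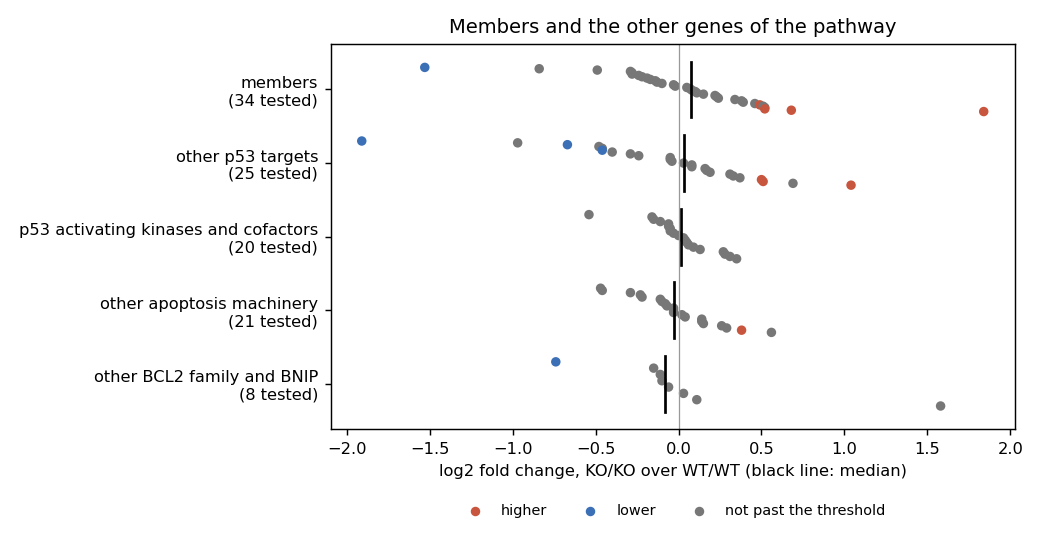
Log2 fold change of KO/KO over WT/WT (x axis) of the 34 members tested and of the 74 tested genes of 4 other pathway lists, 1 point per gene, with the median of each list as a black line. All medians lie between -0.08 and 0.07, and called genes occur on both sides of 0.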

How the data were processed

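RNA of 6 libraries, 3 per genotype, was analysed from raw read counts per gene and per transposable element family, which the authors deposited. Per the submitters' processing notes they used STAR 2.7.0a, featureCounts 1.5.1 and mm10; no source used here gives the annotation release, the strand setting or how multimapping reads were handled. Only the 54087 gene rows were used, not the 1205 repeat families. Genes passing filterByExpr entered edgeR (4.0.16, R 4.3.3), whose quasi-likelihood F test was run with TMM factors and genotype as the only term, two-sided, with Benjamini-Hochberg adjustment over all genes tested. CPM used gene totals and TMM factors; SE is the log2 fold change over the square root of F. Exon lengths, coordinates and overlaps came from GENCODE M21 (GRCm38), which may differ from the annotation counted. Of 167 listed symbols 166 were found directly and 1 through a RefSeq synonym. On simulated data the fit made clearly more false calls than its threshold allows and missed part of the 2-fold changes. Calls close to the threshold are therefore less certain than their adjusted p states. Members and lists were chosen with earlier results of these data known. By rule, values by library are given for members called or not overlapping, for leading and fixed members, and for called pathway genes; 1 gene of the rule is not reported here. Alternatives were other factors and filters, DESeq2 1.42.0, limma-voom (3.58.1), a replicate block, each library left out and other thresholds. Figures used matplotlib 3.10.9.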

Additional observations from a re-analysis of the deposited data

How the results depend on the processing

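Replicate numbers did not pair the samples: deviations from the genotype means correlated at -0.09, 0.04 and 0.02 between same-numbered libraries. With the replicate block 4 members were higher and 1 lower, but the lower one was Plk2 (adjusted p = 0.0476) in place of Hrk (adjusted p = 0.0605), and Birc2 lost its call (adjusted p = 0.0659). Over all genes, leaving out 1 library gave 814 to 1985 higher and 560 to 1380 lower; a threshold of 0.01 gave 756 and 501, and 0.1 gave 2087 lower. Among the members, leaving out 1 library gave 1 to 5 higher and 0 to 1 lower, and a threshold of 0.01 gave 1 and 0. Of the members 2 were lower with no filter, 3 with DESeq2, 3 at a threshold of 0.1 and 0 with limma-voom. Of the other pathway genes, leaving out 1 library gave 0 to 7 higher and 1 to 5 lower; no filter gave 8 and 7, a threshold of 0.1 gave 8 and 7, a threshold of 0.01 gave 0 and 0, and DESeq2 gave 7 higher. Markers called lower were 3 to 6 when 1 library was left out, 11 with no filter and 3 at a threshold of 0.01. Signs changed only for genes not called, and only on leaving out a library. Their log2 fold changes ranged from -0.14 to 0.52 (Bak1), -0.03 to 0.18 (Bbc3), -0.16 to 0.12 (Bcl2), 0.00 to 0.14 (Bcl2l1), -0.46 to 0.12 (Phlda3), -0.71 to 0.07 (Perp), -0.06 to 0.15 (Tnfrsf10b) and -0.11 to 0.06 (Apaf1). The cause of these changes was not tested. Trp63 was not tested with the filter at 1 CPM in 3 libraries. Depth limits Trp63, Trp73, Perp, Gdf15 and Fas.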
